A study of Mus musculus with 16 samples.

Results

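Cytoplasmic, polyA-selected RNA of hepatocytes was compared between mice fed DDC and mice fed chow, with 2 libraries from DDC-fed mice and 2 from chow-fed mice among the 16 libraries of the study. All mice were of the FVB strain. The DDC mice had received the diet for 4 weeks, and cells of both diets were isolated in cycloheximide, which stalls ribosomes on their messages. The other 12 libraries are ribosome fractions of both diets. They enter here only through the estimate of the spread and the rule that leaves out genes for values of 0. Separate animals for the libraries are not stated, so p-values measure only the spread between libraries. For the DDC libraries that spread may be technical, while the chow libraries differed in sex-linked genes, as given below. Of 48158 genes joined to the annotation, 10173 had at least 1 FPKM (a level per length of message and per size of library) in 2 of the 4 libraries. Of these 10156 were tested, 9748 of them protein-coding, and 17 were left out for values of 0. Genes are described by role: lists of transcription factors, transporters, signalling genes and enzymes held 2706 annotated genes, of which 1515 were tested.

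DDC is a porphyrin-inducing compound: it leads to a modified heme that blocks ferrochelatase, the last enzyme of heme synthesis, and porphyrin then plugs small bile ducts. In mice the diet is used as a model of cholestatic injury with a ductular reaction, in which bile duct-like cells multiply and inflammatory and matrix-producing cells gather around them. Hepatocytes take up bile acids, hormones and drugs from blood through carriers of the sinusoidal membrane, modify them with cytochrome P450 and conjugating enzymes, and export them into bile. These functions are set by a network of liver transcription factors and nuclear receptors.

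Summed FPKM was 446462 and 373976 in the DDC libraries and 445688 and 498983 in the chow libraries, and 9664 and 9874 genes reached 1 FPKM in DDC against 9345 and 9345 in chow. The worth of 1 fragment on a message of 1 kb was estimated from the lowest values above 0 of genes with 1 transcript. It came to 0.0194 and 0.0145 FPKM in DDC and 0.0169 and 0.0254 FPKM in chow. Values near 0.02 FPKM may thus rest on about 1 fragment, and on longer messages 1 fragment is worth less. Libraries of the same diet correlated at 0.985 in DDC and 0.97 in chow across genes. The median replicate SD in log2(FPKM + 1) was 0.145 in DDC cytoplasm and 0.125 in chow cytoplasm. It was 0.137 in the light polysomes of chow and 0.225 to 0.252 in the other ribosome fractions, which enter the estimate of the spread. The 4 libraries did not match in sex-linked genes. Xist, the RNA that silences an X chromosome in female cells, was at 0 and 0 FPKM in DDC, against 2.17 and 0 FPKM in chow. The Y-linked gene Eif2s3y was at 21 and 16.4 FPKM in DDC, against 0 and 27.3 FPKM in chow, and Ddx3y, Kdm5d and Uty were likewise at 0 in CHOW replicate 1 alone. CHOW replicate 1 thus stood apart from the other 3 libraries in these genes, and the part of this difference in the results was not tested. Counts are given for the fit to all libraries and, in brackets, for 5 reduced fits: without DDC replicate 1, DDC replicate 2, CHOW replicate 1, CHOW replicate 2, and without the 4 chow libraries numbered 1 (cytoplasm and fractions), always in that order.

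Markers of other cells also differed. Of the macrophage markers, 18 of 23 tested members were called higher (19, 14, 16, 14 and 15) and 0 lower. Their summed level was 930.3 and 1388 FPKM in DDC against 208 and 151 FPKM in chow. For stellate cells and fibroblasts 14 of 19 tested members were called higher (11, 9, 10, 11 and 9) and 0 lower, with sums of 238 and 281 FPKM in DDC against 60.4 and 90.4 FPKM in chow. Of the cholangiocyte markers 7 of 10 tested members were called higher (6, 6, 6, 6 and 6) and 0 lower, with sums of 520.4 and 400.1 FPKM in DDC against 66.9 and 57.3 FPKM in chow. Tested markers that averaged under 1 FPKM in chow numbered 3 of 23 for macrophages, 10 of 19 for stellate cells and fibroblasts, and 5 of 10 for cholangiocytes. Genes that low in chow pass the filter mainly through DDC, so the filter partly fixes the share called higher. Among the cholangiocyte markers, the duct keratins were near 0 in every library: Krt19 was at 0.242 and 0.227 FPKM in DDC, against 0.055 and 0 FPKM in chow. Krt7 was at 0.318 and 0.103 FPKM in DDC, against 0.00476 and 0.0583 FPKM in chow. The endothelial sums overlapped, at 99.8 and 139.9 FPKM in DDC and 105 and 108 FPKM in chow. Among neutrophil markers 0 of 3 tested were called, and 12 of the 15 listed did not pass the filter. Their sums were 9.46 and 19.6 FPKM in DDC against 2.15 and 0.578 FPKM in chow, and all 3 tested had positive differences. Red blood cell markers had 0 of 5 tested called, with sums of 13.7 and 15.7 FPKM in DDC against 6.15 and 14.6 FPKM in chow. For lymphocytes 1 of 1 tested was called, an immunoglobulin light chain gene, and 20 of the 21 listed did not pass the filter. Hepatocyte markers carried 20538 and 14823 FPKM in DDC against 19163 and 23727 FPKM in chow, and 1 of 10 tested was called, Cyp2e1, which was lower in DDC. In bulk RNA, a change in the number of cells of a type and a change in RNA per cell cannot be told apart, and the part of these cells in the results below was not tested.

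Between the diets 1489 genes (14.7% of those tested) were called higher in DDC and 1207 (11.9%) lower, at a Benjamini-Hochberg adjusted p under 0.05 in limma, a linear model fitted across all genes. At least 2-fold differences were called for 1199 genes (11.8%) higher and 753 (7.41%) lower. Differences are DDC minus chow in log2(FPKM + 1), with the standard error. Many genes named below were picked on condition that the diets did not overlap. For these, separate groups describe the values and add no support. On this scale low genes show less than their true fold. Of the calls, 614 higher genes averaged under 1 FPKM in chow and 218 lower genes under 1 FPKM in DDC. The fits without 1 library called 834 to 906 genes higher and 508 to 619 lower, and 1000 genes were called in each of these 4 fits. The reduced fits called fewer of all genes, so the counts in brackets are not to be set against the shares of the full fit. For metal ion carriers, glycosylation enzymes and Notch genes, most reduced fits had a higher-called share near that of all genes. The E2F, MYB and FOXM1 factors were likewise near it. For sugar and carboxylate carriers most of these shares were near or below it. Scaling each library to an equal sum shifted the all-gene median to 0.17 from -0.01. Of those calls 69.7% were higher, against 55.2% in the deposited scaling and 46.3% after quantile normalisation. Across the 4 roles, 343 of 1515 tested genes were higher (22.6%) and 257 lower (17.0%).

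**Figure D1:**
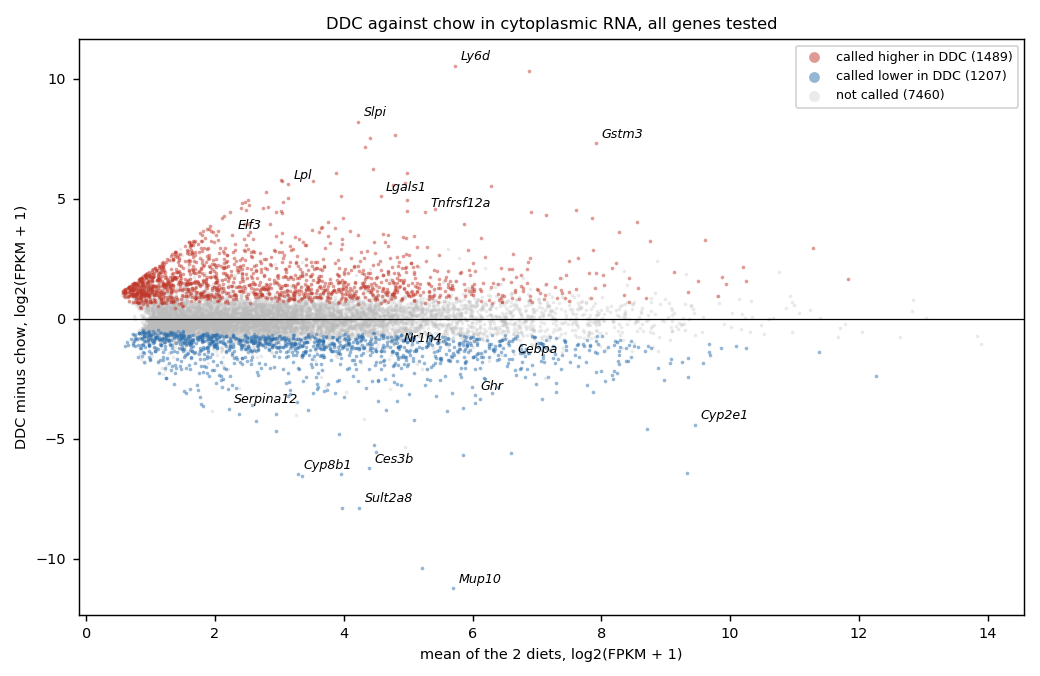
Each point is a gene tested, with the mean of both diets on the x axis and DDC minus chow on the y axis, both in log2(FPKM + 1). Red points were called higher in DDC (1489), blue points lower (1207) and grey points were not called. The labelled genes are examples: Ly6d and Gstm3 lie far above 0, at 10.54 and 7.31, and Mup10 and Sult2a8 far below, at -11.24 and -7.88. The Mup10 value in DDC may be a failed estimate, since its relatives Mup1, Mup7, Mup9 and Mup16 were listed at 0 in DDC and not tested.

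**Figure D2:**
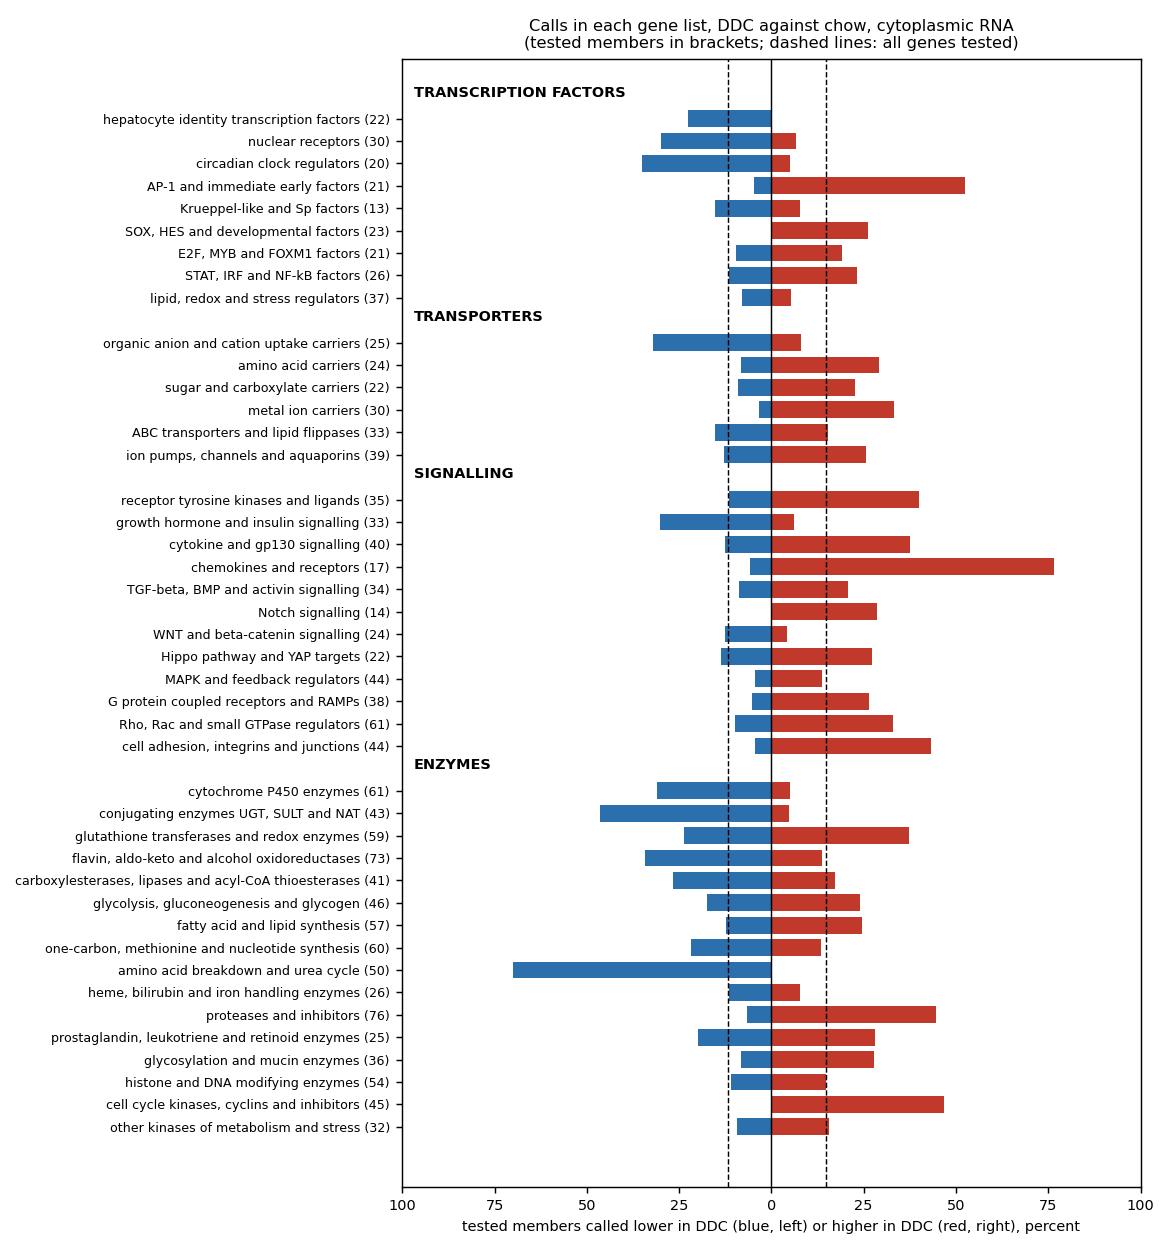
Share of the tested members of each gene list called lower in DDC (blue, to the left) or higher in DDC (red, to the right), with the number of members in brackets. Dashed lines mark the share over all genes tested, 14.7% higher and 11.9% lower. Amino acid breakdown has the longest bar to the left and chemokines the longest to the right, where 7 of the 17 tested averaged under 1 FPKM in chow and passed the filter mainly through DDC.

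Transcription factors were called in both directions, with 32 of 202 tested higher (15.8%) and 30 lower (14.9%). The reduced fits gave 19, 18, 19, 21 and 24 higher and 12, 16, 14, 15 and 16 lower. Over all genes the shares were 14.7% and 11.9%. In the hepatocyte identity list 0 of 22 tested members were called higher and 5 lower (3, 4, 3, 3 and 2), with a median of -0.57. Cebpa, a driver of hepatocyte differentiation and gluconeogenic genes, was at 66.5 and 43.8 FPKM in DDC, against 177 and 172 FPKM in chow (-1.67 ± 0.30, adjusted p = 0.00187). Prox1, needed for hepatocyte fate in development, was at 4.69 and 5.29 FPKM in DDC, against 15.2 and 14.4 FPKM in chow (-1.40 ± 0.26, adjusted p = 0.00205). Both DDC values lay below both chow values for each of these genes. Hnf4a, the central factor of the liver network, was at 71.6 and 83.8 FPKM in DDC, against 118 and 127 FPKM in chow and was not called (-0.65 ± 0.28, adjusted p = 0.111). Foxa3, a forkhead factor that opens liver chromatin, overlapped between the diets at 18.7 and 19.4 FPKM in DDC, against 12.6 and 23.6 FPKM in chow.

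Of the nuclear receptors 2 of 30 tested members were called higher (0, 0, 0, 0 and 2) and 9 lower (5, 6, 4, 6 and 5), with a median of -0.50. Nr1h4, the bile acid receptor FXR, fell to 18.4 and 17.6 FPKM in DDC, against 39.5 and 45.8 FPKM in chow (-1.20 ± 0.23, adjusted p = 0.00262). Ppara, which drives fatty acid oxidation genes in fasting, fell to 0.974 and 0.853 FPKM in DDC, against 4.43 and 5.84 FPKM in chow (-1.67 ± 0.28, adjusted p = 0.00111). Neither gene had overlapping groups. Nr1i3, the xenobiotic receptor CAR, was at 11.9 and 8.42 FPKM in DDC, against 69.7 and 74.6 FPKM in chow (-2.73 ± 0.74, adjusted p = 0.0164), whereas its relative Nr1i2 (PXR) was at 24 and 24.3 FPKM in DDC, against 22.3 and 31.1 FPKM in chow (-0.12 ± 0.28, adjusted p = 0.79). Nr0b2, the repressor SHP that FXR induces, was at 32.7 and 25.2 FPKM in DDC, against 25.7 and 26.8 FPKM in chow and was not called (0.12 ± 0.58, adjusted p = 0.904). Nr1i3 was not called without DDC replicate 1 (adjusted p = 0.0594), DDC replicate 2 (adjusted p = 0.0989), CHOW replicate 1 (adjusted p = 0.0664), CHOW replicate 2 (adjusted p = 0.0806) and the chow libraries numbered 1 (adjusted p = 0.124).

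The clock list had 1 of 20 tested members called higher (0, 0, 0, 0 and 0) and 7 lower (2, 0, 2, 2 and 3), with a median of -0.87. Dbp, an output of the clock, was at 19.9 and 4.06 FPKM in DDC, against 1.43 and 20.2 FPKM in chow. Arntl, its core activator, was at 1.1 and 2.23 FPKM in DDC, against 7.88 and 2.15 FPKM in chow. Both genes differed more between the chow libraries than between the means of the diets, and neither was called. Cry1, a repressor of the core loop, was at 1.65 and 1.94 FPKM in DDC, against 10.1 and 7.58 FPKM in chow (-1.81 ± 0.46, adjusted p = 0.0116), with no overlap. Cry1 was not called without DDC replicate 1 (adjusted p = 0.074), DDC replicate 2 (adjusted p = 0.0543), CHOW replicate 1 (adjusted p = 0.0811) and the chow libraries numbered 1 (adjusted p = 0.11).

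The AP-1 and immediate early factors lay on the other side: 11 of 21 tested members were called higher (10, 9, 9, 11 and 10) and 1 lower (0, 0, 0, 0 and 0), with a median of 1.32. Jun, a subunit of AP-1 that acts in the regenerating liver, rose to 27.6 and 33.4 FPKM in DDC, against 6.15 and 6.49 FPKM in chow (2.10 ± 0.33, adjusted p = 0.000765). Its partner Fos was at 6.11 and 12.4 FPKM in DDC, against 1.67 and 0.754 FPKM in chow (2.17 ± 0.42, adjusted p = 0.00258). Ier3, a stress-responsive survival gene, was at 8.54 and 13.8 FPKM in DDC, against 0.394 and 0.243 FPKM in chow (3.18 ± 0.54, adjusted p = 0.00118). In all 3 the lower DDC value exceeded the higher chow value. The antiproliferative gene Btg2 differed by 2.50, the stress factor Atf3 by 2.24 and the zinc finger factor Klf6 by 2.14. Atf3 was not called with a pseudocount of 0.1 (adjusted p = 0.0595). Among the Krueppel-like factors 1 of 13 tested members were called higher (1, 1, 1, 1 and 1) and 2 lower (1, 2, 2, 1 and 2). Klf15, a glucocorticoid-responsive regulator of amino acid breakdown, fell to 16 and 17.7 FPKM in DDC, against 43 and 58 FPKM in chow (-1.52 ± 0.24, adjusted p = 0.000756).

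Of the developmental factors 6 of 23 tested members were called higher (4, 3, 4, 3 and 5) and 0 lower. Of the 65 listed, 42 did not pass the filter on low values. Sox9, a factor of bile duct cells and of hepatocytes that take on duct features, was at 1.86 and 2.68 FPKM in DDC, against 0.292 and 0.244 FPKM in chow (1.36 ± 0.18, adjusted p = 0.000262). Elf3, an epithelial ETS factor, was at 16.1 and 14.2 FPKM in DDC, against 0.368 and 0.489 FPKM in chow (3.50 ± 0.38, adjusted p = 5.96e-05). The fetal chromatin protein gene Hmga1 was at 9.01 and 15.1 FPKM in DDC, against 2.53 and 2.69 FPKM in chow (1.81 ± 0.29, adjusted p = 0.000837). These 3 genes did not overlap between diets. In the E2F, MYB and FOXM1 list 4 of 21 tested members were called higher (2, 2, 2, 3 and 2) and 2 lower (0, 2, 2, 0 and 2), with Foxm1, which drives G2 and mitosis genes, at 2.01 and 1.71 FPKM in DDC, against 0.0725 and 0.0539 FPKM in chow (1.42 ± 0.25, adjusted p = 0.00134).

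The STAT, IRF and NF-kB list had 6 of 26 tested members called higher (3, 3, 3, 3 and 4) and 3 lower (1, 1, 0, 2 and 0). The factor pair of the non-canonical NF-kB pathway was called: Nfkb2 was at 4.59 and 4.21 FPKM in DDC, against 1.25 and 1.01 FPKM in chow (1.34 ± 0.23, adjusted p = 0.00141). Its partner Relb was at 2.46 and 2.1 FPKM in DDC, against 0.211 and 0.186 FPKM in chow (1.45 ± 0.28, adjusted p = 0.0025). Stat3, the main factor downstream of interleukin 6, was at 10.7 and 12.3 FPKM in DDC, against 11 and 10.4 FPKM in chow and was not called (0.09 ± 0.26, adjusted p = 0.828). Spi1, a factor that defines myeloid cells, was at 4.93 and 8.29 FPKM in DDC, against 1.48 and 0.532 FPKM in chow (1.93 ± 0.39, adjusted p = 0.00351), beside the macrophage marker sums given above. Lipid, redox and stress regulators were mostly uncalled, with 2 of 37 tested members called higher (0, 1, 1, 1 and 1) and 3 lower (1, 2, 1, 2 and 2). Mlxipl, the carbohydrate response factor ChREBP, fell to 6.07 and 4.09 FPKM in DDC, against 28.6 and 23.2 FPKM in chow (-2.16 ± 0.31, adjusted p = 0.000374). Srebf1, the lipogenic factor, overlapped at 54.7 and 33.1 FPKM in DDC, against 75.6 and 42.5 FPKM in chow (-0.40 ± 0.42, adjusted p = 0.515).

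**Figure D3:**
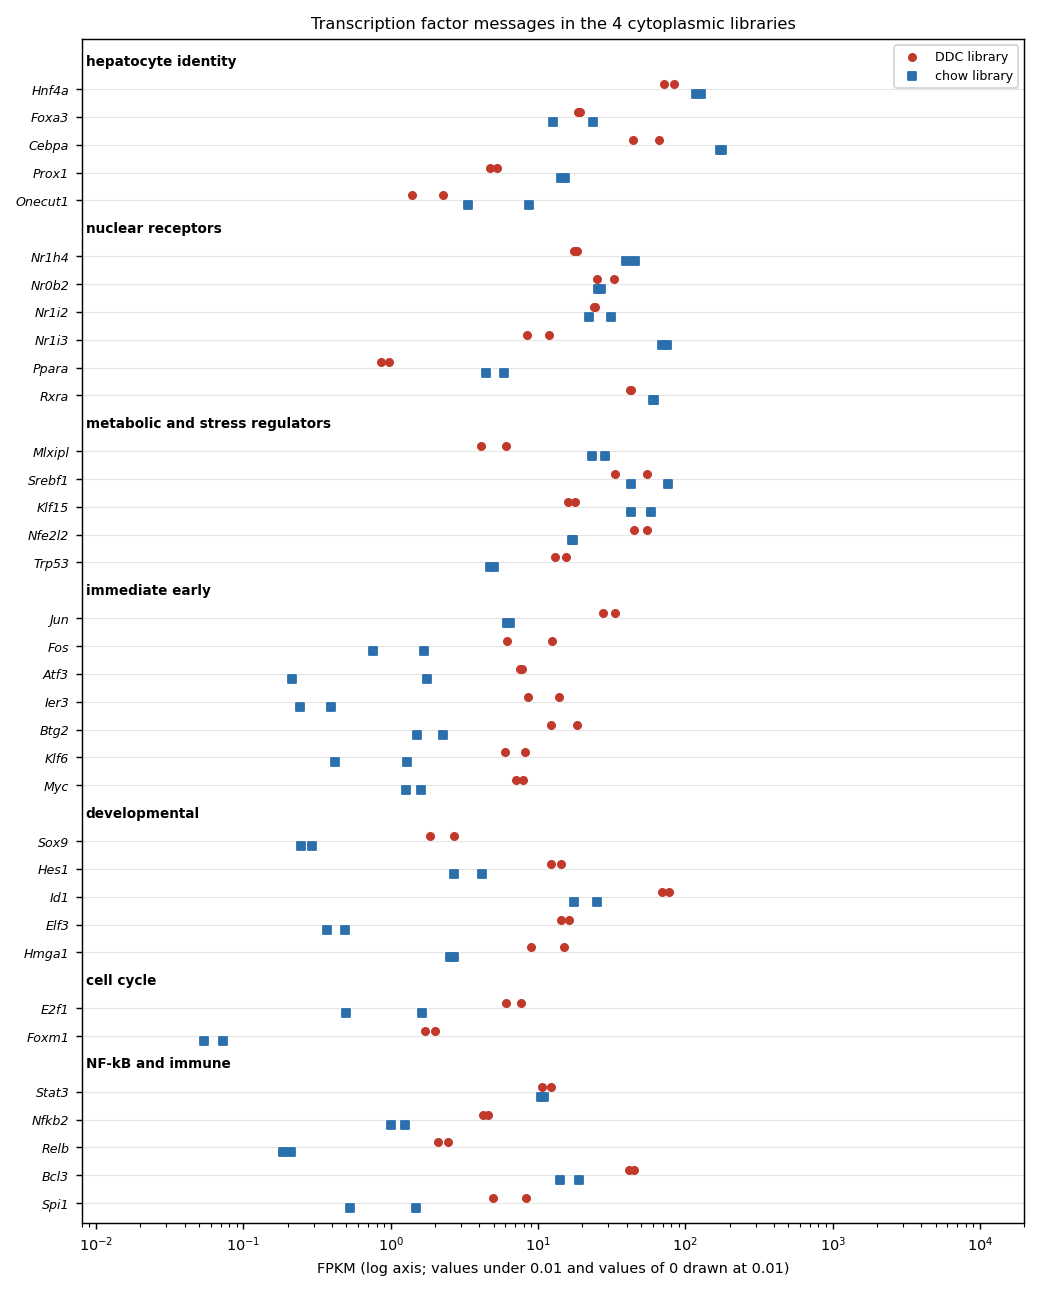
FPKM of transcription factor messages in each cytoplasmic library on a log axis, with the 2 DDC libraries as red circles and the 2 chow libraries as blue squares. The DDC circles of Cebpa, Prox1 and Ppara sit left of the chow squares, those of Jun, Ier3 and Elf3 sit right of them, and those of Foxa3 and Stat3 overlap with the squares.

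Transporters were called higher in 39 of 172 tested (22.7%) and lower in 22 (12.8%), against 14.7% and 11.9% over all genes. The reduced fits gave 20, 24, 23, 22 and 21 higher and 15, 13, 18, 15 and 16 lower. Among organic anion and cation uptake carriers most calls were lower: 2 of 25 tested members were called higher (1, 2, 1, 2 and 2) and 8 lower (9, 8, 8, 7 and 9), with a median of -0.89. Slc10a1, the sodium-dependent bile acid carrier NTCP, was at 52.2 and 42.6 FPKM in DDC, against 258 and 266 FPKM in chow (-2.45 ± 0.37, adjusted p = 0.000527). Slco1b2, which takes up bilirubin and drugs, was at 66 and 45.2 FPKM in DDC, against 241 and 309 FPKM in chow (-2.30 ± 0.34, adjusted p = 0.000433). Slc22a7, an organic anion carrier, was at 5.63 and 3.11 FPKM in DDC, against 38.6 and 61.4 FPKM in chow (-3.25 ± 0.42, adjusted p = 0.000201). In each of these genes the groups were separate. Slc17a2, a phosphate and urate carrier family member, differed by -2.53.

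Exporters move bile acids and conjugates into bile at the canalicular membrane or back into blood at the basolateral one. Slc51b, a subunit of the basolateral bile acid exporter OST, was at 94.4 and 86.5 FPKM in DDC, against 2.46 and 0.983 FPKM in chow (5.12 ± 0.55, adjusted p = 5.61e-05). Abcc4, a basolateral exporter of conjugates, was at 10 and 6.77 FPKM in DDC, against 0.579 and 0.0993 FPKM in chow (2.81 ± 0.29, adjusted p = 3.59e-05). Both were at or below 2.46 FPKM in chow and above 6 FPKM in DDC. The canalicular bile salt pump Abcb11 was at 164 and 91.6 FPKM in DDC, against 108 and 77.4 FPKM in chow and was not called (0.42 ± 0.33, adjusted p = 0.38). The canalicular conjugate exporter Abcc2 was at 116 and 89.2 FPKM in DDC, against 67.8 and 113 FPKM in chow (0.21 ± 0.30, adjusted p = 0.637). Of the ABC transporters as a whole 5 of 33 tested members were called higher (4, 4, 4, 4 and 2) and 5 lower (4, 2, 6, 2 and 4), a share close to that of all genes. Abcb1a, a drug exporter, was at 10.3 and 6.93 FPKM in DDC, against 1.7 and 1.07 FPKM in chow (2.00 ± 0.30, adjusted p = 0.000569). The groups of Abcb1a were separate. The peroxisomal fatty acid importer Abcd3 was at 42.3 and 29.9 FPKM in DDC, against 102 and 123 FPKM in chow (-1.62 ± 0.26, adjusted p = 0.000879).

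Of the amino acid carriers 7 of 24 tested members were called higher (5, 5, 5, 4 and 6) and 2 lower (1, 1, 1, 2 and 1), with a median of 0.51. Slc1a4, a carrier of neutral amino acids, was at 15.7 and 14.7 FPKM in DDC, against 1.41 and 0.544 FPKM in chow (3.07 ± 0.47, adjusted p = 0.000569). The creatine carrier Slc6a8 was at 8.66 and 7.5 FPKM in DDC, against 0.551 and 0.571 FPKM in chow (2.54 ± 0.31, adjusted p = 0.000111). Slc1a2, the glutamate carrier of pericentral hepatocytes, went the other way at 0.536 and 0.0371 FPKM in DDC, against 8 and 7.38 FPKM in chow (-2.78 ± 0.39, adjusted p = 0.00032). None of these 3 overlapped between the diets. The abundant glutamine carrier Slc38a3 was at 402 and 276 FPKM in DDC, against 231 and 456 FPKM in chow, with overlapping groups (0.04 ± 0.38, adjusted p = 0.959). Metal ion carriers had 10 of 30 tested members called higher (3, 7, 3, 6 and 2) and 1 lower (0, 1, 0, 2 and 0). In the full fit 14.7% of all genes were called higher and 11.9% lower. Without DDC replicate 1, CHOW replicate 1 or the chow libraries numbered 1, the higher-called share of these carriers was near that of all genes. The zinc importer Slc39a4 was at 118 and 103 FPKM in DDC, against 10.2 and 8.55 FPKM in chow (3.43 ± 0.30, adjusted p = 1.07e-05). Slc11a1, a metal carrier of phagocytes, was at 6.43 and 9.79 FPKM in DDC, against 1.62 and 0.683 FPKM in chow (2.09 ± 0.39, adjusted p = 0.00205). The metallothionein genes Mt1 and Mt2, which bind zinc and copper, were higher in DDC replicate 2 than in DDC replicate 1: Mt1 was at 391 and 775 FPKM in DDC, against 214 and 200.1 FPKM in chow (1.41 ± 0.53, adjusted p = 0.0676). Over its alternatives the adjusted p of Mt1 ran from 0.0223 to 0.364, and it was called with libraries scaled to an equal sum (adjusted p = 0.0311) or quantile-normalised (adjusted p = 0.0262).

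For sugar and carboxylate carriers 5 of 22 tested members were called higher (2, 1, 3, 1 and 3) and 2 lower (0, 0, 1, 1 and 0). The main glucose carrier of liver, Slc2a2, was at 109 and 76.6 FPKM in DDC, against 79.7 and 96.2 FPKM in chow and was not called (0.06 ± 0.25, adjusted p = 0.886). Of ion pumps, channels and aquaporins 10 of 39 tested members were called higher (5, 5, 7, 5 and 6) and 5 lower (1, 1, 2, 2 and 2). The calcium pump Atp2b2 was at 7.98 and 6.26 FPKM in DDC, against 0.61 and 0.0278 FPKM in chow (2.65 ± 0.31, adjusted p = 8.7e-05). Fxyd3, a modulator of the sodium pump, was at 5.92 and 4.91 FPKM in DDC, against 0 and 0 FPKM in chow and was called (adjusted p = 0.00033), so that no fold is given against chow libraries at 0. The glycerol and urea channel Aqp9 was at 99.3 and 69.6 FPKM in DDC, against 84.7 and 96.9 FPKM in chow (-0.12 ± 0.22, adjusted p = 0.724).

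**Figure D4:**
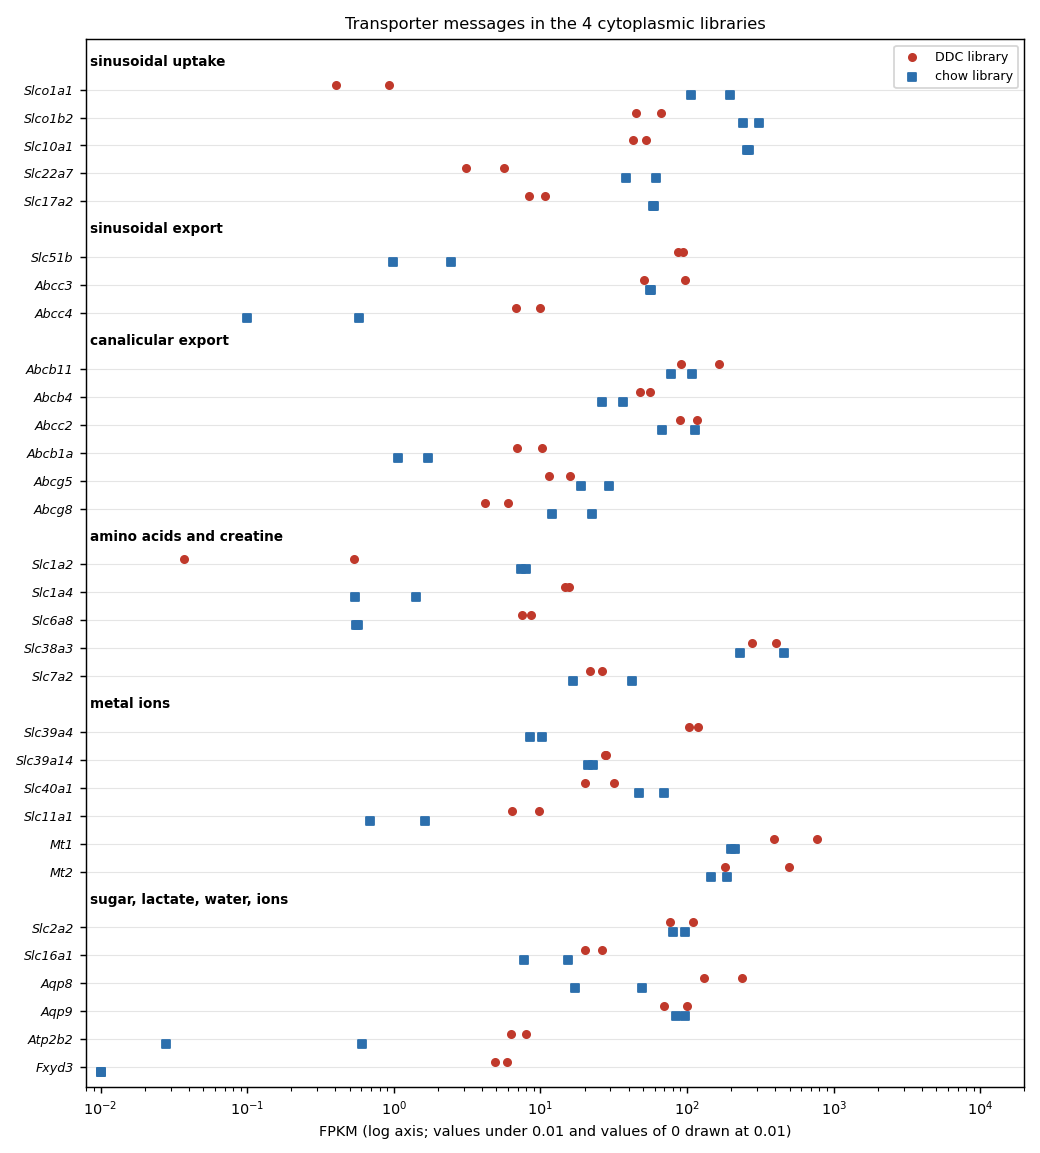
FPKM of transporter messages in each cytoplasmic library on a log axis, with DDC libraries as red circles and chow libraries as blue squares. The 5 carriers plotted under the heading sinusoidal uptake have their DDC circles to the left. The exporters Slc51b and Abcc4 have them to the right, and the canalicular pumps Abcb11 and Abcc2 overlap.

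Signalling genes had 115 of 400 tested called higher (28.7%) and 40 lower, with 82, 70, 79, 73 and 70 higher and 21, 22, 24, 23 and 21 lower in the reduced fits. In the growth hormone and insulin list 2 of 33 tested members were called higher (2, 0, 1, 1 and 0) and 10 lower (6, 5, 4, 7 and 3), with a median of -0.59. Ghr, the growth hormone receptor, fell to 24.4 and 17.5 FPKM in DDC, against 162 and 244 FPKM in chow (-3.20 ± 0.38, adjusted p = 0.000102), while its circulating mediator Igf1 was at 605 and 493 FPKM in DDC, against 753 and 579.8 FPKM in chow and was not called (-0.27 ± 0.40, adjusted p = 0.661). Stat5b, which carries the growth hormone signal to the nucleus, fell to 3.08 and 3.01 FPKM in DDC, against 7.3 and 6.63 FPKM in chow (-0.97 ± 0.22, adjusted p = 0.00665). Stat5b was not called without CHOW replicate 1 (adjusted p = 0.0568) and the chow libraries numbered 1 (adjusted p = 0.0713). For receptor tyrosine kinases and their ligands 14 of 35 tested members were called higher (8, 8, 8, 7 and 6) and 4 lower (3, 3, 3, 3 and 2). The collagen receptor Ddr1 was at 9.7 and 7.93 FPKM in DDC, against 0.215 and 0.0426 FPKM in chow (3.12 ± 0.22, adjusted p = 2.56e-06). The growth factor gene Fgf1 was at 2.34 and 3.59 FPKM in DDC, against 33.7 and 32.4 FPKM in chow (-3.12 ± 0.30, adjusted p = 2.37e-05). Egfr, the receptor of epidermal growth factor, was at 13.6 and 10.1 FPKM in DDC, against 20.3 and 49.9 FPKM in chow, where the chow libraries differed from each other by more than the nearest libraries of the 2 diets did. It was not called (-1.37 ± 0.60, adjusted p = 0.114); over its alternatives the adjusted p ran from 0.0194 (without the chow libraries numbered 1) to 0.531.

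Cytokine genes had 15 of 40 tested members called higher (11, 11, 11, 11 and 8) and 5 lower (3, 2, 5, 2 and 4). Among receptors of the interleukin 6 family, Lifr, the leukemia inhibitory factor receptor, was at 18.7 and 12.9 FPKM in DDC, against 87.6 and 98.1 FPKM in chow (-2.51 ± 0.24, adjusted p = 2.45e-05). Il6ra was at 0.723 and 1.2 FPKM in DDC, against 2.68 and 5.77 FPKM in chow (-1.36 ± 0.26, adjusted p = 0.00258). Tnfrsf12a, the receptor of TWEAK that is tied to progenitor growth in mouse liver, was at 209.5 and 151 FPKM in DDC, against 7.14 and 7.43 FPKM in chow (4.43 ± 0.45, adjusted p = 3.68e-05). Il10rb was at 11.7 and 13.5 FPKM in DDC, against 2.04 and 2.38 FPKM in chow (2.08 ± 0.25, adjusted p = 9.47e-05). Each of these 4 genes had separate groups. Of the chemokine genes 13 of 17 tested members were called higher (10, 10, 10, 9 and 10) and 1 lower (1, 1, 1, 1 and 1), with a median of 1.66. Of the 52 listed, 35 did not pass the filter on low values, and 7 of the 17 tested averaged under 1 FPKM in chow, so the filter partly fixes this share too. Ccl2, which draws monocytes, was at 11.9 and 13.2 FPKM in DDC, against 0.0839 and 0.0845 FPKM in chow (3.64 ± 0.31, adjusted p = 9.66e-06). Cxcl1, which draws neutrophils, was at 83.5 and 116 FPKM in DDC, against 6.31 and 12 FPKM in chow (3.35 ± 0.40, adjusted p = 9.75e-05). Cxcl12 was the called member in the other direction, at 39.3 and 34.3 FPKM in DDC, against 125 and 138 FPKM in chow (-1.81 ± 0.33, adjusted p = 0.00191). The macrophage marker sums given above moved with the chemokine genes, and their part was not tested.

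Of the TGF-beta family 7 of 34 tested members were called higher (5, 3, 4, 5 and 5) and 3 lower (2, 2, 2, 2 and 2). Tgfbr2, a receptor subunit for TGF-beta, was at 11.6 and 11.9 FPKM in DDC, against 1.39 and 1.38 FPKM in chow (2.42 ± 0.26, adjusted p = 5.4e-05). The stress hormone Gdf15 was at 23.9 and 24.8 FPKM in DDC, against 2.59 and 2.23 FPKM in chow (2.90 ± 0.58, adjusted p = 0.00337). Hamp, the iron hormone hepcidin and a BMP target, was at 5281 and 4543 FPKM in DDC, against 8571 and 8064 FPKM in chow and was not called (-0.76 ± 0.39, adjusted p = 0.17). Notch genes had 4 of 14 tested members called higher (1, 1, 2, 1 and 1) and 0 lower. The receptor Notch2 was at 2.22 and 2.1 FPKM in DDC, against 2.46 and 1.83 FPKM in chow and was not called (0.01 ± 0.24, adjusted p = 0.978). In the WNT list 1 of 24 tested members were called higher (1, 1, 1, 0 and 1) and 3 lower (1, 2, 1, 1 and 1). The lower-called share, 12.5%, was near the 11.9% of all genes. Glul, glutamine synthetase and a beta-catenin target of the cells around central veins, fell to 20.1 and 20.8 FPKM in DDC, against 93.8 and 70.1 FPKM in chow (-1.94 ± 0.27, adjusted p = 0.00029), with Ctnnb1, beta-catenin itself, at 34.1 and 36.7 FPKM in DDC, against 42.9 and 40.6 FPKM in chow (-0.23 ± 0.28, adjusted p = 0.578). In the Hippo list 6 of 22 tested members were called higher (5, 3, 5, 4 and 4) and 3 lower (0, 0, 1, 0 and 0). The YAP target Ccn1 was at 24 and 17.3 FPKM in DDC, against 3.31 and 3.21 FPKM in chow (2.33 ± 0.34, adjusted p = 0.000403). Yap1 was at 6.84 and 8.68 FPKM in DDC, against 11.4 and 10.3 FPKM in chow (-0.44 ± 0.25, adjusted p = 0.205).

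MAPK genes had 6 of 44 tested members called higher (3, 2, 4, 3 and 4) and 2 lower (0, 0, 1, 0 and 2). The higher-called share, 13.6%, was near the 14.7% of all genes. Mapk3 (ERK1) was at 32.1 and 37.8 FPKM in DDC, against 9.02 and 11.9 FPKM in chow (1.66 ± 0.24, adjusted p = 0.000368). For G protein coupled receptors 10 of 38 tested members were called higher (10, 7, 7, 8 and 4) and 2 lower (1, 0, 1, 1 and 1). Of the 155 listed, 117 did not pass the filter. Gpr39, a zinc-sensing receptor, was at 10.8 and 8.86 FPKM in DDC, against 1.53 and 1.29 FPKM in chow (2.16 ± 0.43, adjusted p = 0.0031). The glucagon receptor Gcgr was at 55.5 and 32.7 FPKM in DDC, against 50.8 and 66.2 FPKM in chow (-0.44 ± 0.36, adjusted p = 0.398). Small GTPase regulators had 20 of 61 tested members called higher (13, 11, 12, 11 and 12) and 6 lower (4, 6, 5, 5 and 5). Rhoc, a GTPase of cell movement, was at 61.3 and 61.7 FPKM in DDC, against 5.08 and 4.02 FPKM in chow (3.50 ± 0.48, adjusted p = 0.000272). Arhgap22, a Rac inhibitor, was at 6.95 and 8.8 FPKM in DDC, against 0.0332 and 0.0875 FPKM in chow (3.06 ± 0.25, adjusted p = 6.82e-06). Rhoc and Arhgap22 had separate groups. Of adhesion genes 19 of 44 tested members were called higher (15, 13, 16, 14 and 16) and 2 lower (0, 1, 0, 1 and 0), with a median of 0.78. Of these tested members, 12 averaged under 1 FPKM in chow. Cdh1, E-cadherin, was at 42.3 and 36.5 FPKM in DDC, against 9.89 and 5.94 FPKM in chow (2.21 ± 0.29, adjusted p = 0.000218). The hyaluronan receptor Cd44 was at 2.58 and 2.87 FPKM in DDC, against 0.243 and 0.212 FPKM in chow (1.60 ± 0.18, adjusted p = 7.15e-05). The gap junction gene Gjb1, abundant in hepatocytes, overlapped at 505 and 307 FPKM in DDC, against 378 and 367 FPKM in chow (0.08 ± 0.30, adjusted p = 0.876). Vcam1 and Icam1, which bind leukocytes, differed by 3.09 and 3.20.

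Enzymes had 161 of 766 tested called higher and 170 lower (22.2%), with 103, 113, 114, 112 and 104 higher and 109, 80, 119, 85 and 89 lower in the reduced fits. The cytochrome P450 list had 3 of 61 tested members called higher (2, 2, 2, 2 and 5) and 19 lower (13, 9, 14, 11 and 17), with a median of -0.87. Cyp4a32, a fatty acid hydroxylase, was at 0.281 and 0.315 FPKM in DDC, against 17.9 and 21.7 FPKM in chow (-3.99 ± 0.27, adjusted p = 1.86e-06). Cyp2c55 rose to 41.4 and 24.6 FPKM in DDC, against 0.244 and 0.49 FPKM in chow (4.60 ± 0.41, adjusted p = 1.1e-05), and Cyp4f16 to 8.7 and 6.81 FPKM in DDC, against 0.7 and 0.44 FPKM in chow (2.48 ± 0.31, adjusted p = 0.000157). The abundant xenobiotic enzymes Cyp3a11 and Cyp1a2 overlapped between the diets: Cyp3a11 was at 2838 and 1904 FPKM in DDC, against 1292 and 3071 FPKM in chow (0.22 ± 0.51, adjusted p = 0.791). Cyp1a2 was at 438 and 263 FPKM in DDC, against 156 and 359 FPKM in chow (0.52 ± 0.55, adjusted p = 0.53). Members of this and the next families share similar sequences, and the split of fragments between near-identical copies is uncertain.

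Conjugating enzymes had 2 of 43 tested members called higher (2, 2, 2, 2 and 3) and 20 lower (12, 8, 15, 10 and 13), with a median of -1.19. Ugt3a1, a sugar transferase, was at 0.38 and 0.44 FPKM in DDC, against 25.5 and 27.3 FPKM in chow (-4.28 ± 0.20, adjusted p = 2.01e-07). Sult5a1, a sulfotransferase, was at 0.535 and 0.489 FPKM in DDC, against 38.2 and 38.6 FPKM in chow (-4.70 ± 0.52, adjusted p = 6.41e-05). Ugdh, which makes the glucuronic acid donor that these enzymes use, went the other way at 99.5 and 120.1 FPKM in DDC, against 26 and 30.2 FPKM in chow (1.93 ± 0.31, adjusted p = 0.000862). All 3 had separate groups. Sult1a1, a phenol sulfotransferase, overlapped at 333 and 401 FPKM in DDC, against 493 and 316 FPKM in chow (-0.11 ± 0.43, adjusted p = 0.883).

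Glutathione transferases and redox enzymes were called in both directions, with 22 of 59 tested members called higher (16, 18, 18, 19 and 14) and 14 lower (12, 7, 11, 8 and 4). Gstm3 was at 3338 and 2783 FPKM in DDC, against 14.8 and 22.5 FPKM in chow (7.31 ± 0.69, adjusted p = 1.98e-05). Its relative Gstm2 was at 778 and 512 FPKM in DDC, against 40.4 and 23.1 FPKM in chow (4.32 ± 0.39, adjusted p = 1.33e-05). For both these glutathione transferases the lower DDC value was more than 10 times the higher chow value. Gsta1, of the alpha class, was at 299.6 and 158 FPKM in DDC, against 2.97 and 3.72 FPKM in chow (5.66 ± 0.44, adjusted p = 4.84e-06). Nqo1, a quinone reductase and target of the redox factor NRF2, was at 13.7 and 9.25 FPKM in DDC, against 2.7 and 1.64 FPKM in chow (1.98 ± 0.38, adjusted p = 0.00257). The heme-degrading enzyme gene Hmox1 was at 51.1 and 102 FPKM in DDC, against 10.5 and 6.02 FPKM in chow (3.03 ± 0.51, adjusted p = 0.00114). Catalase, Cat, which removes hydrogen peroxide in peroxisomes, fell to 412 and 323 FPKM in DDC, against 999 and 1342 FPKM in chow (-1.66 ± 0.28, adjusted p = 0.00104). Both DDC values of Nqo1 and Hmox1 lay above the chow values and those of Cat below them. Gclc, which limits glutathione synthesis, was at 138 and 128 FPKM in DDC, against 86.7 and 67.2 FPKM in chow and was not called (0.79 ± 0.43, adjusted p = 0.199). For heme, bilirubin and iron enzymes 2 of 26 tested members were called higher (2, 2, 2, 2 and 2) and 3 lower (1, 2, 3, 1 and 2). The lower-called share, 11.5%, was near the 11.9% of all genes. Alas1, the first enzyme of heme synthesis, overlapped at 219.7 and 156 FPKM in DDC, against 193 and 211 FPKM in chow (-0.13 ± 0.40, adjusted p = 0.857). Steap3, an iron reductase, was at 21.7 and 19.8 FPKM in DDC, against 7.69 and 5.13 FPKM in chow (1.57 ± 0.29, adjusted p = 0.00187).

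The oxidoreductase list had 10 of 73 tested members called higher (4, 7, 5, 4 and 5) and 25 lower (18, 13, 19, 14 and 15). Hsd11b1, which makes active glucocorticoid, fell to 155 and 121 FPKM in DDC, against 667 and 666 FPKM in chow (-2.27 ± 0.40, adjusted p = 0.00155), and Aldh6a1, of valine breakdown, to 23.6 and 24.6 FPKM in DDC, against 128 and 121 FPKM in chow (-2.32 ± 0.23, adjusted p = 2.58e-05). Akr1b7, an aldo-keto reductase, was at 10.3 and 15.9 FPKM in DDC, against 0.168 and 0.0691 FPKM in chow (3.62 ± 0.44, adjusted p = 0.00011). The alcohol dehydrogenase Adh1 overlapped at 1040.4 and 753 FPKM in DDC, against 929 and 1134 FPKM in chow (-0.21 ± 0.31, adjusted p = 0.656). Esterases and lipases had 7 of 41 tested members called higher (5, 5, 5, 4 and 5) and 11 lower (10, 9, 10, 9 and 8). Ces3b was at 2.26 and 0.816 FPKM in DDC, against 156 and 211 FPKM in chow (-6.23 ± 0.40, adjusted p = 1.26e-06). Ces1e was at 24.3 and 8.99 FPKM in DDC, against 172 and 248 FPKM in chow (-3.71 ± 0.42, adjusted p = 7.1e-05). Lpl, lipoprotein lipase, which adult hepatocytes hardly express, was at 60.3 and 60.4 FPKM in DDC, against 0.244 and 0.282 FPKM in chow (5.60 ± 0.47, adjusted p = 7.53e-06), and macrophages also express it.

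Amino acid breakdown was the list with the largest share of lower calls: 0 of 50 tested members were called higher and 35 lower (23, 18, 22, 19 and 13), with a median of -1.36. Tat, which starts tyrosine breakdown, was at 170.0 and 236 FPKM in DDC, against 608 and 625 FPKM in chow (-1.62 ± 0.25, adjusted p = 0.000622). Dpys, of pyrimidine breakdown, was at 25 and 20.6 FPKM in DDC, against 191 and 150.2 FPKM in chow (-2.85 ± 0.49, adjusted p = 0.00131). Gls2, liver glutaminase, was at 51 and 42 FPKM in DDC, against 166 and 139 FPKM in chow (-1.69 ± 0.33, adjusted p = 0.00258). Cps1, which feeds ammonia into the urea cycle, was at 116 and 71.8 FPKM in DDC, against 163 and 151 FPKM in chow and was not called (-0.77 ± 0.40, adjusted p = 0.174). Gls2 was not called without the chow libraries numbered 1 (adjusted p = 0.0653).

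In the glycolysis and gluconeogenesis list 11 of 46 tested members were called higher (9, 10, 11, 10 and 9) and 8 lower (4, 5, 5, 3 and 3). Pkm, the pyruvate kinase of non-hepatic and dividing cells, was at 10.6 and 22.3 FPKM in DDC, against 2.17 and 1.68 FPKM in chow (2.50 ± 0.32, adjusted p = 0.000177). The liver form Pklr was at 55.5 and 42.4 FPKM in DDC, against 25.5 and 35.6 FPKM in chow (0.67 ± 0.52, adjusted p = 0.373). Pygb, the brain form of glycogen phosphorylase, was at 8.94 and 8.81 FPKM in DDC, against 0.28 and 0.281 FPKM in chow (2.95 ± 0.29, adjusted p = 2.45e-05). Gpi1, of glycolysis, was at 565 and 397 FPKM in DDC, against 78 and 86.5 FPKM in chow (2.51 ± 0.26, adjusted p = 3.69e-05). Pdk1, which inhibits pyruvate dehydrogenase, fell to 2.26 and 1.87 FPKM in DDC, against 9.86 and 10.9 FPKM in chow (-1.89 ± 0.34, adjusted p = 0.00168). Pkm, Pygb, Gpi1 and Pdk1 had separate groups. Of lipid synthesis genes 14 of 57 tested members were called higher (7, 11, 11, 10 and 11) and 7 lower (4, 3, 7, 2 and 5). Acsl1, which activates fatty acids, fell to 51.9 and 37.6 FPKM in DDC, against 198 and 262 FPKM in chow (-2.34 ± 0.32, adjusted p = 0.000289). Scd2, a desaturase, rose to 11.3 and 10.1 FPKM in DDC, against 0.246 and 0.251 FPKM in chow (3.22 ± 0.47, adjusted p = 0.000403). The more abundant Scd1 was at 1683 and 889 FPKM in DDC, against 341 and 326 FPKM in chow and was not called (1.87 ± 0.86, adjusted p = 0.132). Over its alternatives the adjusted p of Scd1 ran from 0.00803 (the 4 cytoplasmic libraries only, where it was called) to 0.449.

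One-carbon and nucleotide enzymes had 8 of 60 tested members called higher (4, 4, 4, 3 and 4) and 13 lower (6, 2, 3, 3 and 2). Rrm1 and Rrm2, the subunits of ribonucleotide reductase that supplies DNA precursors, were both called: Rrm2 was at 18.5 and 20.2 FPKM in DDC, against 1.36 and 2.29 FPKM in chow (2.87 ± 0.31, adjusted p = 5.96e-05). Retinoid and eicosanoid enzymes had 7 of 25 tested members called higher (6, 6, 6, 5 and 6) and 5 lower (3, 2, 4, 4 and 3). Retsat, a retinol saturase, fell to 22.2 and 15.3 FPKM in DDC, against 218 and 220.0 FPKM in chow (-3.50 ± 0.31, adjusted p = 1.07e-05). Glycosylation enzymes had 10 of 36 tested members called higher (3, 3, 6, 3 and 3) and 3 lower (0, 1, 2, 0 and 1), with Mgat4b, a branching enzyme, at 40.2 and 25.6 FPKM in DDC, against 11.7 and 12.2 FPKM in chow (1.36 ± 0.26, adjusted p = 0.00227). Chromatin enzymes had 8 of 54 tested members called higher (4, 4, 4, 4 and 4) and 6 lower (3, 2, 3, 1 and 2), near the background. The maintenance methyltransferase Dnmt1 was at 3.37 and 2.79 FPKM in DDC, against 0.821 and 0.779 FPKM in chow (1.18 ± 0.18, adjusted p = 0.000631). Its partner Uhrf1 was at 12.2 and 7.42 FPKM in DDC, against 0.0223 and 0.227 FPKM in chow (3.24 ± 0.28, adjusted p = 1.07e-05). Sirt3, a mitochondrial deacylase, fell to 13.1 and 12.1 FPKM in DDC, against 37.7 and 50.8 FPKM in chow (-1.72 ± 0.30, adjusted p = 0.00153). Other kinases had 5 of 32 tested members called higher (3, 2, 2, 2 and 2) and 3 lower (1, 0, 2, 2 and 2). These shares, 15.6% and 9.38%, were near the 14.7% and 11.9% of all genes.

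Proteases and inhibitors had 34 of 76 tested members called higher (23, 24, 24, 25 and 19) and 5 lower (5, 3, 4, 3 and 3), with a median of 0.86. Of the tested members, 18 averaged under 1 FPKM in chow. Ctsb, a lysosomal protease, was at 317 and 268 FPKM in DDC, against 95.8 and 85.1 FPKM in chow (1.68 ± 0.27, adjusted p = 0.00076). The macrophage elastase gene Mmp12 was at 41.3 and 84.4 FPKM in DDC, against 0.197 and 0.0593 FPKM in chow (5.74 ± 0.44, adjusted p = 7.43e-06). Slpi, an inhibitor of leukocyte elastase, was at 418 and 246 FPKM in DDC, against 0.0755 and 0.0983 FPKM in chow (8.21 ± 0.89, adjusted p = 5.61e-05). Timp1, an inhibitor of matrix proteases, was at 9.65 and 6.98 FPKM in DDC, against 0 and 0 FPKM in chow and was called (adjusted p = 1.8e-05). Serpina12, the adipokine vaspin, fell to 0.39 and 0.138 FPKM in DDC, against 18.5 and 13.9 FPKM in chow (-3.76 ± 0.23, adjusted p = 1.26e-06). The macrophage and stellate marker sums given above moved with Mmp12 and Timp1, and their part was not tested.

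Cell cycle kinases, cyclins and inhibitors had 21 of 45 tested members called higher (15, 16, 15, 19 and 15) and 0 lower, with a median of 0.98. Of the tested members, 15 averaged under 1 FPKM in chow, and genes that low in chow pass the filter mainly through DDC. Cdk1, the mitotic kinase, was at 26 and 21.8 FPKM in DDC, against 0.875 and 2.85 FPKM in chow (3.21 ± 0.33, adjusted p = 3.69e-05). Its cyclin Ccnb2 was at 6.59 and 7.21 FPKM in DDC, against 0.0977 and 0.11 FPKM in chow (2.84 ± 0.46, adjusted p = 0.000937). Cdkn1a, the inhibitor p21 that TRP53 induces, was at 27.7 and 42.8 FPKM in DDC, against 5.15 and 5.71 FPKM in chow (2.46 ± 0.41, adjusted p = 0.00109). Activators and this inhibitor were thus called in the same direction. The RefSeq promoter table (GRCm38.p6, 250 bases before to 50 after each start) was searched on both strands for 10 motifs over 7 of the lists, and those shown were picked after their counts were seen. The 10 were the cell cycle core TTTGAA, the NF-Y motif CCAAT, the kB motif GGGANTTCC, the motif TGACNNNGC (the core of the antioxidant response element), a form of it longer by a final A that always overlaps it, CACGTG, an E2F set made of TTCCCGC with the sites TTTGGCGC and TTTCGCGC, the AP-1 site TGACTCA with its reverse complement, the serum response element and the direct repeat that nuclear receptor pairs bind, with a single base between its copies. No match says only that these letters are not in the window. TTTGAA, the core of the cell cycle homology region through which these genes are known to be held off outside G2, was in the promoters of 6 of 15 higher-called members with an entry (Aurka, Ccnb2, Ccnf, Cdk1, Cdkn3 and Plk1), in 1 of 21 uncalled members, and in 20.2% of all genes with an entry (17.9% of all promoters). CCAAT, the NF-Y motif, was in 12 of 15 and 14 of 21, and in 41.1% of all genes (37.4% of all promoters). Plk1, a kinase of mitotic entry named here after its values were seen, was at 4.43 and 3.68 FPKM in DDC, against 0.0324 and 0.07 FPKM in chow (2.26 ± 0.23, adjusted p = 3.14e-05). Below, capitals mark CCAAT and TTTGAA in either orientation.
Cdk1 (chr10:69352863-69353162, minus strand): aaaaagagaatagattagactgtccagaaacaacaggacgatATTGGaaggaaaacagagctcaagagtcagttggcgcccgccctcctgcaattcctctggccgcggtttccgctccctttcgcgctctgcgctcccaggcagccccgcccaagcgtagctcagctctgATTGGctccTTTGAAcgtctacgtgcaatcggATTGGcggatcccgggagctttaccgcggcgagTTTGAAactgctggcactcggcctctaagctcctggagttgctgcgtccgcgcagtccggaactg
Ccnb2 (chr9:70421505-70421804, minus strand): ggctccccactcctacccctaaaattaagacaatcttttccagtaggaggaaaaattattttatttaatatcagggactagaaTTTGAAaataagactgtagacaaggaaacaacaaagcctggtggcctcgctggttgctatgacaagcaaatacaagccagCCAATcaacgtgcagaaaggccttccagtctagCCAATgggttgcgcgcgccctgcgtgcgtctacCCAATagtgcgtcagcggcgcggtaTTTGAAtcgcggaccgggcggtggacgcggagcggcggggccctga
Plk1 (chr7:122159185-122159484, plus strand): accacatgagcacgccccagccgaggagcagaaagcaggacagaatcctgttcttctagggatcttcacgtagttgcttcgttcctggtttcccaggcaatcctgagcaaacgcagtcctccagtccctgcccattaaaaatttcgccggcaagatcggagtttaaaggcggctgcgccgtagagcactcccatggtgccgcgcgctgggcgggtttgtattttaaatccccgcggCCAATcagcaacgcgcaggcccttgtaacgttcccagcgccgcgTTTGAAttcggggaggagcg

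The kB motif GGGANTTCC was in 2 of 4 higher-called STAT, IRF and NF-kB members with an entry (Bcl3 and Nfkb2). It was in 2 of 10 higher-called chemokine genes (Cxcl9 and Cxcl10). In the cell cycle, glutathione transferase, AP-1 and clock lists it was in 0 of 15, 0 of 19, 0 of 10 and 0 of 1 higher-called members. Among uncalled members it was in 1 of 13 of the STAT list (Irf2) and 1 of 1 chemokine gene (Ccl25). Of lower-called clock genes 1 of 6 had it (Clock). Of all genes with an entry 1.92% had it (1.68% of all promoters). Cxcl10, which draws T cells, was at 17.3 and 10.6 FPKM in DDC, against 1.75 and 0.567 FPKM in chow (2.81 ± 0.61, adjusted p = 0.00516). Cxcl10 was not called without DDC replicate 1 (adjusted p = 0.0528) and CHOW replicate 2 (adjusted p = 0.0538). The values of Nfkb2 stand above. Capitals mark the motif on either strand in the Cxcl10 promoter and in 1 of the 3 promoters listed for Nfkb2, and a match is a description of the letters only.
Nfkb2 (chr19:46304487-46304786, plus strand): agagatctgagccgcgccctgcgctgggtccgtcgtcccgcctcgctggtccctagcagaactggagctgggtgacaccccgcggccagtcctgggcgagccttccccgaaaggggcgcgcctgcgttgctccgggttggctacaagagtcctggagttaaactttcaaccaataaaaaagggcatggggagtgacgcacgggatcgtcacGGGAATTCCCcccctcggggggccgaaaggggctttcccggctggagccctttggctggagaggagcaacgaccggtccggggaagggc
Cxcl10 (chr5:92348840-92349139, minus strand): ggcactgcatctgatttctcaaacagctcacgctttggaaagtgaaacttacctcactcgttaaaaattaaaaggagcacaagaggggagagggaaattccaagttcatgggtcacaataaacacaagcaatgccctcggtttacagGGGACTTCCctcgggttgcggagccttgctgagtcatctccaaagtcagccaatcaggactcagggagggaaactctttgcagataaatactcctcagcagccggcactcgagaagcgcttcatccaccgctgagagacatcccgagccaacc

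Zonation lists were compared next, since hepatocytes around the central and portal veins differ in their enzymes. Of the pericentral genes 3 of 23 tested members were called higher (2, 2, 3, 2 and 3) and 8 lower (6, 5, 6, 5 and 4). Of the periportal genes 2 of 27 tested members were called higher (1, 1, 2, 1 and 2) and 10 lower (6, 5, 6, 4 and 5), so lower calls lay in both zones. Oat, a pericentral gene of ornithine breakdown, was at 34.3 and 37.9 FPKM in DDC, against 139 and 103 FPKM in chow (-1.70 ± 0.25, adjusted p = 0.000399). Etnppl, a periportal lyase, was at 8.23 and 7.33 FPKM in DDC, against 45.1 and 62.2 FPKM in chow (-2.62 ± 0.55, adjusted p = 0.0044).

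Sex-biased genes were read beside the sex-linked difference of CHOW replicate 1. Of the male-biased genes 1 of 24 tested members were called higher (0, 0, 0, 0 and 0) and 7 lower (3, 3, 8, 3 and 14). Of the female-biased genes 4 of 27 tested members were called higher (3, 3, 5, 3 and 10) and 0 lower. Cyp2d9, a male-biased P450, was at 215 and 177 FPKM in DDC, against 4.41 and 706 FPKM in chow, so the chow libraries differed from each other far more than the DDC libraries did. It was not called with all libraries (1.67, adjusted p = 0.716) and was called lower without the chow libraries numbered 1 (-1.85, adjusted p = 0.0252). The female-biased Cyp3a41a was at 0.0199 and 0.0149 FPKM in DDC, against 77.4 and 0 FPKM in chow. Sult2a1 was at 1.11 and 1.36 FPKM in DDC, against 71.3 and 0 FPKM in chow. Slco1a1, also male-biased, was lower in DDC than in either chow library, at 0.932 and 0.405 FPKM in DDC, against 107 and 196 FPKM in chow (-6.47 ± 0.41, adjusted p = 1.26e-06). Sult1e1, female-biased, was higher in DDC than in either chow library, at 16 and 51.6 FPKM in DDC, against 0.222 and 0.024 FPKM in chow (4.74 ± 0.52, adjusted p = 5.93e-05). These calls held in all 5 reduced fits.

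**Figure D5:**
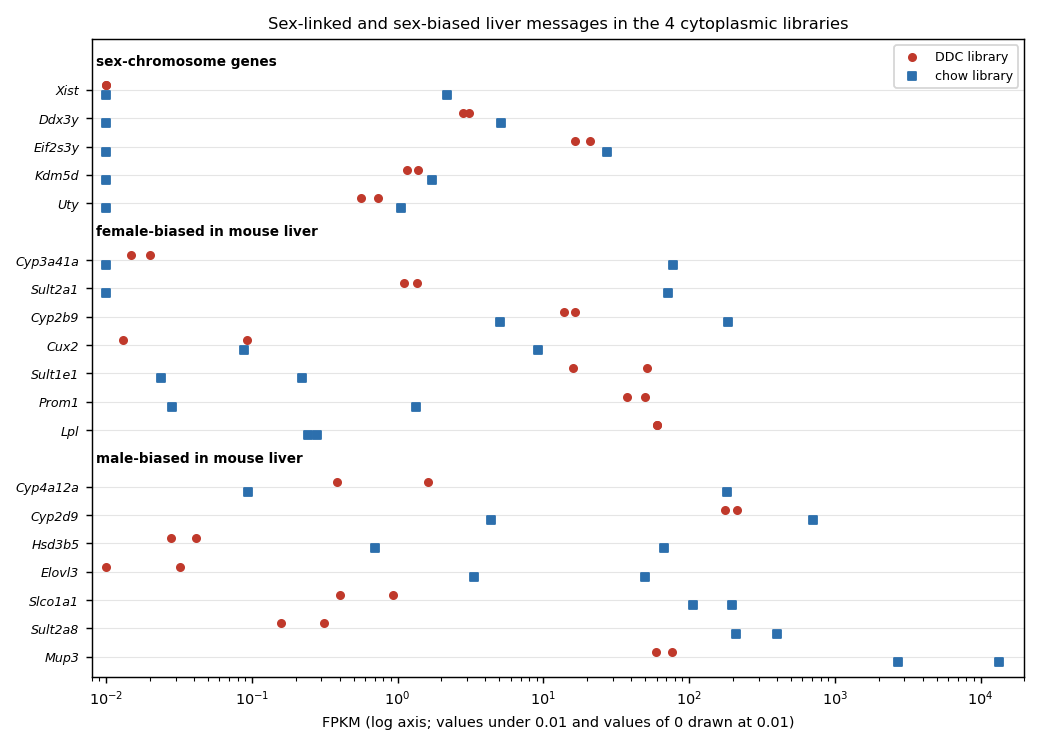
FPKM of sex-chromosome and sex-biased liver genes in each cytoplasmic library on a log axis, with DDC libraries as red circles and chow libraries as blue squares. For Xist, the Y-linked genes, Cyp3a41a, Cyp2d9 and Hsd3b5 the 2 chow squares lie far apart, while for Slco1a1, Sult2a8, Sult1e1 and Lpl both lie on the same side of the DDC circles.

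Outside the lists, Cd63, a membrane protein of late endosomes, was at 281 and 205 FPKM in DDC, against 0.536 and 0.845 FPKM in chow (7.16 ± 0.41, adjusted p = 1.04e-06). Mfge8, a bridge for the uptake of dying cells, was at 154 and 92.9 FPKM in DDC, against 0.726 and 0.831 FPKM in chow (6.08 ± 0.37, adjusted p = 1.26e-06). Ubd, a ubiquitin-like modifier induced by cytokines, was at 102 and 33.7 FPKM in DDC, against 0.0463 and 0.175 FPKM in chow (5.76 ± 0.65, adjusted p = 7.43e-05). Dio1, which activates thyroid hormone, fell to 7.56 and 6.37 FPKM in DDC, against 152 and 141 FPKM in chow (-4.22 ± 0.60, adjusted p = 0.000368), and Upp2, a uridine phosphorylase, to 2.61 and 2.56 FPKM in DDC, against 70.3 and 261 FPKM in chow (-5.25 ± 0.60, adjusted p = 7.81e-05). None of these 5 genes overlapped between the diets, which the rule that picked them required. A further 17 genes were listed at 0 in both libraries of 1 diet while at 100 FPKM or more in other libraries of the study, and were not tested. They include Ahsg, at 0 and 0 FPKM in DDC, against 6444 and 5231 FPKM in chow. Serpina1c was at 339 and 251 FPKM in DDC, against 0 and 0 FPKM in chow. Since abundant liver and mitochondrial genes are among them, a value of 0 can be a failed estimate. The same limit touches Mup10, a major urinary protein gene at 0.0523 and 0.0586 FPKM in DDC, against 1972 and 3292 FPKM in chow, since its relatives Mup1, Mup7, Mup9 and Mup16 are among the 17.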

How the data were processed

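The authors deposited FPKM per transcript; the submitters' processing notes name STAR 2.4.2a, Cuffnorm, Picard 1.119, Trimmomatic and bcl2fastq, and the build GRCm38. Per the labels' protocols, libraries were stranded and polyA-selected. Transcripts were joined to GENCODE M21 (116728 of 117592 matched) and FPKM summed per gene. The values are not counts, so the test was limma 3.58.1 (R 4.3.3) on log2(FPKM + 1), with 8 group means over all 16 libraries, a variance trend and Benjamini-Hochberg adjustment. Genes needed 1 FPKM in 2 of the 4 cytoplasmic libraries. The fit was run on simulated data with independent errors, spreads shuffled between genes and effects in well expressed genes only. That run does not check the calls of low genes. Alternatives changed the pseudocount, filter, scaling, libraries, transcripts and replicate block. Sequenced depth is unknown, since Cuffnorm scales between libraries.

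Named genes were fixed key genes of each list, plus up to 4 called members a direction with the largest difference, a larger mean of at least 5 FPKM and groups that did not overlap; outside the lists, the 10 largest a direction from 20 FPKM. Aurka, Ccnf, Cdkn3 and Plk1 were named for their promoters. Members and lists were chosen with earlier results of these data known. Results on some members are not reported here.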

Additional observations from a re-analysis of the deposited data

How the results depend on the processing

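Against 1489 genes higher and 1207 lower, the fits without 1 library called 834 to 906 higher and 508 to 619 lower; these have fewer samples. Without the chow libraries numbered 1 the counts were 789 and 518. A filter of 5 FPKM, which tests fewer genes, called 939 higher, quantile normalisation 2017 lower, and a fit to the 4 cytoplasmic libraries only 2284 higher and 2052 lower; the cause of the last 2 shifts was not tested. Replicate numbers did not pair the diets: the deviations of same-numbered libraries correlated at -0.12 across genes. With the replicate number as a block, 1595 genes were higher and 1327 lower. With crossed pairs, chosen after seeing the data, they were 1609 and 1361. The other alternatives kept both counts within 1.5 times. Of 300 called named genes, 159 were called in the same direction in the 5 reduced fits. The called gene Ncstn changed direction (-0.16 with protein-coding transcripts only, not called), and the cause was not tested. Of 93 uncalled named genes, 39 changed sign under some alternative, among them Cyp2d9 (-1.85 without the chow libraries numbered 1, where it was called). Of the uncalled named genes, 27 were called with the 4 cytoplasmic libraries only, among them Egfr, Gclc, Hamp, Hnf4a, Mt1 and Scd1. With the replicate block 18 were called, among them Egfr (adjusted p = 0.0278), Mt1 (adjusted p = 0.0352) and Scd1 (adjusted p = 0.041). With 2 libraries a diet, replicate error is estimated mostly from the other groups, and values near 1 fragment limit genes under about 0.02 FPKM. Most of those groups had a larger replicate spread than cytoplasm, so a gene not called is not thereby equal between the diets.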
